A study of Homo sapiens with 4 samples.

Results

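The interferon-stimulated and RNA-sensing genes are the genes with which a cell detects foreign or misplaced nucleic acid, releases interferon and answers to it. The set described here holds 46 genes, taken by symbol from the deposited expression table, and all 46 were found, each in 1 of its 57820 rows. RNA sequencing was done on 786-0 cells, an established human renal cell carcinoma line, in 2 libraries labelled shNT (a non-targeting short hairpin RNA) and 2 libraries labelled shGLUD1 (a short hairpin RNA against GLUD1, which encodes the mitochondrial glutamate dehydrogenase). Cells of both groups had been kept in DMEM with 10% fetal bovine serum and were then starved of amino acids for 12 h, so no library here comes from fed cells. The question asked of these genes is how their levels differ between starved cells with the GLUD1 hairpin and starved cells with the control hairpin. The labels do not say how many hairpin sequences or clones were used, nor whether replicates are separate cultures. The p-values weigh a difference only against the spread between libraries of a group. That spread is partly shared across genes by the test and may be technical.

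Double-stranded or unusually ended RNA in the cytosol is bound by the helicases RIG-I and MDA5, which signal through the mitochondrial protein MAVS to the factors IRF3 and IRF7. These switch on type I interferons such as interferon beta and type III interferons such as interferon lambda, which leave the cell and bind receptors coupled to Janus kinases. The kinases activate the complex ISGF3, which contains STAT2 and IRF9 and binds the interferon-stimulated response element in front of many genes, the sensors among them. Their products degrade or sequester viral RNA, block viral entry and exit, and attach the ubiquitin-like protein ISG15 to other proteins.

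Levels are given in TPM (transcripts per 1000000), which divide reads by transcript length, so that genes can be compared with each other. A TPM value is a share of 1000000 and keeps no read total, so the depth behind each value is unknown. Differences are log2 fold changes of TPM + 1, shGLUD1 minus shNT, tested with limma over the 12524 genes whose mean reached 1 TPM. A gene is called where the adjusted p is under 0.05, and fold changes of low genes are understated by the added 1.

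The 2 groups differed well beyond these genes. The median log2 fold change over all genes tested was 0.63, while the summed share of cytosolic ribosomal protein genes was 31.5% and 31.9% with shNT, against 23.1% and 21.1% with shGLUD1. With these ribosomal protein genes left out and each library brought back to 1000000, the median was 0.49. In that fit 46.4% of genes were called higher, against 56.7% with them. Differences of the set's genes are therefore also given after rescaling each library by median ratios, which brings the median difference to -0.01, and for part of the genes after trends with transcript length and GC content were removed. GLUD1 was at 18.1 and 17.4 TPM with shNT, against 13.5 and 19.8 TPM with shGLUD1, so the groups overlapped. Its log2 fold change was -0.11 (limma adjusted p = 0.631) on TPM, -0.84 (adjusted p = 0.00201) after rescaling and -1.09 (adjusted p = 0.00151) with length and GC trends removed, and on TPM the library labelled shGLUD1 replicate 2 does not bear out its label. Groups are therefore named by their labels only, and "with shGLUD1" means in the libraries labelled so. GLUD2, its close paralog, was at 0.2 TPM or less. Short structured RNAs also differed, with RMRP at 273 and 279 TPM with shNT, against 4.72 and 14.8 TPM with shGLUD1. Of the renal carcinoma markers VIM, CA9 and PAX8 were detected while PAX2 and CDH6 were at or near 0, and the list summed to 1039 to 1076 TPM in shNT and 3091 to 3958 TPM in shGLUD1, mostly VIM. Of the 8 tested genes of that list 5 were higher and 2 lower on TPM, and 4 higher and 3 lower after rescaling. Over all genes the shares higher were 56.7% on TPM and 22.7% after rescaling. VIM (1.86 on TPM, 0.77 for CA9 and 1.08 for VIM after rescaling), CA9 (1.53), CDH2 (1.33) and MET (1.6) were higher on both scales, and KRT8 (0.53) on TPM only. NNMT (-0.78, limma adjusted p = 3.6e-04) and KRT18 (-0.64, adjusted p = 0.0425) were lower on TPM, and PAX8 was lower after rescaling (-1.06, adjusted p = 0.00117). Among leukocyte markers PTPRC reached 0.01 TPM and CD3E 0.05 TPM, although CD68 and CD74, higher on TPM and not called after rescaling, brought the summed level of that list to 212 to 233 TPM in shNT and 309 to 348 TPM in shGLUD1. Fibroblast markers summed to 28.1 to 28.6 TPM in shNT and 63.5 to 66.3 TPM in shGLUD1, with 3 of the 4 tested higher on TPM, only COL1A2 higher after rescaling, and COL3A1 at 0.03 TPM or less, and endothelial markers summed to less than 0.5 TPM. The part of these shifts in the results below was not tested, and fewer cells of a type and less RNA per cell cannot be told apart in bulk libraries.

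The set split in direction. HERC5 rose most, about 8.8-fold by mean TPM. By log2 fold change of TPM + 1 it was followed, among the genes tested, by the RNA helicases DDX60 and DDX58 and the IFIT family genes IFIT3 and IFIT2. IFNL1, the only interferon gene of the set above 0, fell most, and ISG15, the most abundant member, fell as well. Of the 46 genes 41 passed the filter on low values. On TPM 24 were called higher (58.5%, against 56.7% of all genes tested) and 8 lower (19.5%, against 7.77%), and 9 were not called. After rescaling 12 were higher (29.3%, against 22.7% of all genes) and 14 lower (34.1%, against 28.4%). With length and GC trends removed 9 were higher (22.0%, against 22.9%) and 12 lower (29.3%, against 22.1%). The share called higher was thus close to the background on TPM and with the trends removed. The median difference was 0.69 on TPM and 0.04 after rescaling, beside 0.63 and -0.01 over all genes. DDX58, DDX60, HERC5, IFI16, IFIT2 and IFIT3 were higher under all 3 treatments of the data. BST2, IFI27, IFI6, IFNL1, IRF7, ISG15, ISG20 and RSAD2 were lower under all 3. In a fit on TPM with no filter on low values some of these were not called. They were IFI27 (limma adjusted p = 0.0679), IFI6 (0.123), ISG20 (0.0508) and RSAD2 (0.149). No gene was higher on TPM and lower after rescaling. Without shGLUD1 replicate 2, the library in which GLUD1 was not lower, fewer members were called in each direction on TPM, as over all genes. Fewer were lower on TPM without shNT replicate 1, and fewer higher after rescaling without shGLUD1 replicate 2, again as over all genes. Each such fit leaves 1 library in a group.

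**Figure D1:**
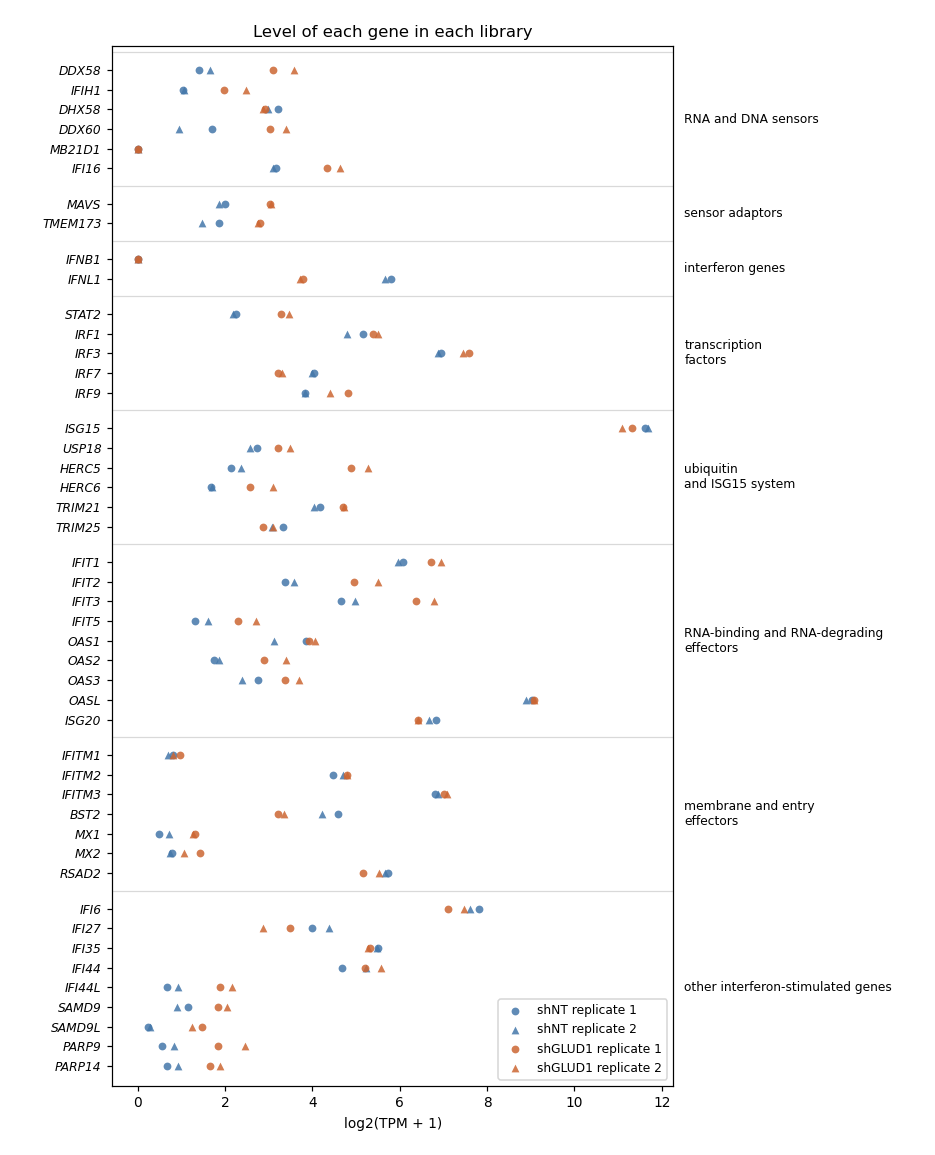
Level of each of the 46 genes as log2(TPM + 1) in the 4 libraries (circles replicate 1, triangles replicate 2; blue shNT, orange shGLUD1), grouped by role. ISG15 lies far to the right of every other gene, and the groups do not overlap in 39 of the 41 genes tested (95.1%, against 83.4% of all genes tested).

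The promoter stretches printed next were chosen because they show the core of the interferon-stimulated response element before genes that were higher and before genes that were lower. The core was searched as GAAANNGAA and, on the other strand, TTCNNTTTC, in the 250 bases before each start site (position -1 is the base just before it), with overlapping matches counted. RefSeq promoter windows (GRCh38.p14) matched 35 of the 46 genes. HERC5 and IFIT3 were higher under all 3 treatments and ISG15, BST2 and IFNL1 lower under all 3. Each stretch runs 5′ to 3′ in the direction of the gene, and capitals mark the core on either strand.
HERC5 chr4:88456975-88457074, plus strand, 3 matches: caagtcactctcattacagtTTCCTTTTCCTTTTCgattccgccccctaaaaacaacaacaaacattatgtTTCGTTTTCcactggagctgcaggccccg
IFIT3 chr10:89332410-89332507, plus strand, 3 matches: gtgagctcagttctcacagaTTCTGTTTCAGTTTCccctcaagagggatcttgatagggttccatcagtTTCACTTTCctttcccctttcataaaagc
ISG15 chr1:1013364-1013424, plus strand, 3 matches: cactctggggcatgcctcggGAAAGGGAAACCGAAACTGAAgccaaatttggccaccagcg
BST2 chr19:17405726-17405780, minus strand, 2 matches: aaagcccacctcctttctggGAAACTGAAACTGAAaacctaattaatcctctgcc
IFNL1 chr19:39296174-39296228, plus strand, 2 matches: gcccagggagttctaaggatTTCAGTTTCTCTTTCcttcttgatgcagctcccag

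The ISG15 and IFIT3 stretches lie inside the gene spans of the annotation, before a start site that is not the gene's first. In HERC5 the first pair of matches overlaps, at positions -124 and -118, and a further match starts at -73. ISG15 holds 3 overlapping matches from -113, and BST2 a pair from -130.

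Of the 35 genes 23 (65.7%) held the core in at least 1 window, against 8.41% of 27305 genes in the same RefSeq table. A core followed by a further A was found in 22 of the 35 (62.9%), against 3.71% of all genes. The genes were picked as interferon-stimulated, a class known for this element, so the excess over all genes is no result of these libraries. By the calls on TPM the core was present in 12 of the 19 higher genes, in 7 of the 7 lower ones and in 2 of the 5 not called. It was present in 7 of the 10 genes that were higher after rescaling, in 8 of the 10 that were lower and in 6 of the 11 not called. These shares were not tested. DDX58, STAT2, IRF1, IRF9, HERC6 and OAS1 were among the genes with no match, which says only that these letters are absent from these windows. A match is a description of the sequence and not evidence of a bound factor.

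Among the sensors 4 of the 5 tested genes rose, on TPM (80.0%, against 56.7% of all genes) as after rescaling (80.0%, against 22.7%), and DHX58 was the exception. DDX58 (chr9:32455705-32526324, GRCh38 with GENCODE 29, minus strand) encodes RIG-I, the helicase that recognises RNA ends lacking a cap. It was at 1.63 and 2.13 TPM with shNT, against 7.61 and 10.9 TPM with shGLUD1. Both shGLUD1 libraries lay well above both shNT libraries, with a log2 fold change of 1.82 (SE 0.25, with an adjusted p of 0.00014 from limma) and 1.21 after rescaling. DDX60 encodes a helicase related to the SKI complex that has been described as a cofactor of RIG-I. Its level was 2.23 and 0.93 TPM with shNT, against 7.19 and 9.46 TPM with shGLUD1. The shNT libraries differed between themselves, yet the groups were apart, by 1.89 (SE 0.29, limma adjusted p = 0.00026) on TPM and 1.30 after rescaling. IFIH1 encodes MDA5, the sensor of long double-stranded RNA. It was at 1.06 and 1.08 TPM with shNT, against 2.92 and 4.62 TPM with shGLUD1, and rose by 1.18 on the log2 scale (SE 0.26, limma adjusted p = 0.00265). That difference was 0.67 after rescaling and 0.19, not called (adjusted p = 0.381), with length and GC trends removed.

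IFI16, a nuclear sensor of DNA, had the highest mean level of these sensors. It was at 7.94 and 7.6 TPM with shNT, against 19.2 and 23.8 TPM with shGLUD1, without overlap. Its log2 fold change was 1.35 (SE 0.18, with an adjusted p of 0.00012 from limma), with 0.63 after rescaling. DHX58 encodes LGP2, a helicase of the same family that lacks the signalling domains and modulates the other receptors. It was at 8.23 and 6.89 TPM with shNT, against 6.51 and 6.29 TPM with shGLUD1, so the shGLUD1 libraries lay slightly below. The difference was not called on TPM (-0.21, limma adjusted p = 0.395) and was lower after rescaling (-0.88, adjusted p = 0.00347) and with length and GC trends removed (-0.80, adjusted p = 0.00673). MB21D1, which encodes the DNA sensor cGAS, was listed at 0 in 3 libraries and at 0.01 TPM in shNT replicate 2.

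Both adaptors were called higher on TPM (against 56.7% of all genes) and neither after rescaling (against 22.7%). MAVS joins RIG-I and MDA5 to their kinases on the mitochondrial surface. It was at 2.98 and 2.66 TPM with shNT, against 7.21 and 7.24 TPM with shGLUD1, a log2 fold change of 1.11 (SE 0.22, with an adjusted p of 0.00134 from limma). TMEM173 encodes STING, the adaptor of the cGAS pathway, and was at 2.61 and 1.79 TPM with shNT, against 5.94 and 5.75 TPM with shGLUD1. Its difference was also 1.11 (SE 0.24, limma adjusted p = 0.00225). The groups overlapped for neither gene, as was the case for 83.4% of all genes tested. After rescaling the values were 0.48 (adjusted p = 0.0544) for MAVS and 0.51 (adjusted p = 0.0741) for TMEM173. With length and GC trends removed TMEM173 was higher by 0.69 (adjusted p = 0.0224) and MAVS was not called, at 0.04 (adjusted p = 0.836).

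IFNL1 encodes interferon lambda 1, a type III interferon whose receptor is found mainly on epithelial cells, and lies at chr19:39296325-39298673 on the plus strand. Its level was 55.1 and 49.9 TPM with shNT, against 12.9 and 12.1 TPM with shGLUD1. The libraries of a group lay close together and the groups far apart. The gene fell by 1.99 on the log2 scale (SE 0.14, limma adjusted p = 3.6e-06), by 2.72 after rescaling and by 2.12 with length and GC trends removed. IFNB1, which encodes interferon beta, was listed at 0 in all 4 libraries. Of 19 further interferon genes 17 were listed at 0 throughout and none passed the filter. The 2 others were IFNL2 and IFNL3, named after their values were seen, which are near-identical copies of each other and may share reads. IFNL2 was at 0.82 and 0.41 TPM with shNT, against 0.31 and 0.11 TPM with shGLUD1. IFNL3 was at 0.76 and 1.16 TPM with shNT, against 0.25 and 0.76 TPM with shGLUD1, so its groups met at 0.76 TPM.

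**Figure D2:**
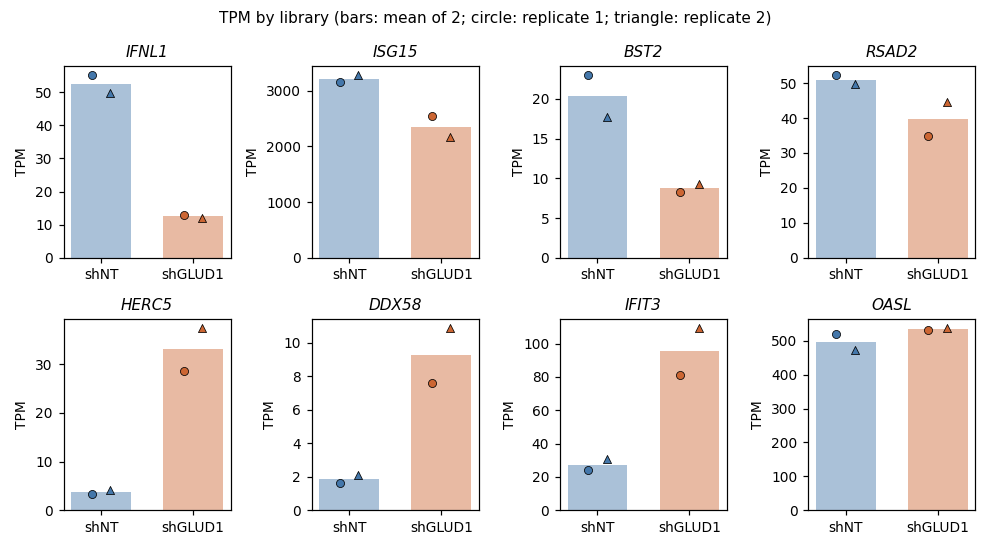
TPM of 8 genes by library (points) with the mean of the 2 libraries of each group (bars, axes from 0). IFNL1, ISG15, BST2 and RSAD2 are lower in both shGLUD1 libraries, HERC5, DDX58 and IFIT3 are higher in both, and OASL lies between 475 and 539 TPM in all 4.

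Of the 5 transcription factors 4 were higher on TPM (80.0%, against 56.7% of all genes) and IRF7 was lower. After rescaling only STAT2 among them remained higher (1 of 5, against 22.7% of all genes). STAT2, the subunit of ISGF3 that carries its activation domain, was at 3.78 and 3.51 TPM with shNT, against 8.72 and 10.1 TPM with shGLUD1. Its log2 fold change was 1.16 (SE 0.21, with an adjusted p of 0.00081 from limma), with 0.50 after rescaling and 0.29, not called (adjusted p = 0.11), with length and GC trends removed. IRF9, the DNA-binding subunit of the same complex, was at 13.3 and 13.2 TPM with shNT, against 27.0 and 20.3 TPM with shGLUD1. It rose by 0.77 (SE 0.17, limma adjusted p = 0.00285) on TPM and differed by 0.04 (adjusted p = 0.873) after rescaling and by 0.37 (adjusted p = 0.137) with length and GC trends removed.

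IRF7 is itself induced by interferon and amplifies the production of more interferon. It was at 15.5 and 14.9 TPM with shNT, against 8.23 and 8.89 TPM with shGLUD1, and both shGLUD1 libraries were clearly lower. IRF7 fell by 0.76 on the log2 scale (SE 0.17, limma adjusted p = 0.00319) and by 1.47 after rescaling, and the TPM call was lost without shNT replicate 1. IRF3, the factor that is present before any infection and activated by phosphorylation, was the most abundant of the 5. It was at 123 and 117 TPM with shNT, against 190 and 172 TPM with shGLUD1. The difference was 0.59 (SE 0.10, limma adjusted p = 0.00059) on TPM and -0.18 (adjusted p = 0.317) after rescaling, while IRF3 was called higher with length and GC trends removed (0.35, adjusted p = 0.016) and after quantile normalization (0.38, adjusted p = 0.0202). IRF1, a factor of interferon gamma responses, was at 34.5 and 26.7 TPM with shNT, against 41.1 and 44.6 TPM with shGLUD1. Its difference of 0.48 (SE 0.15, limma adjusted p = 0.0158) became -0.28 (adjusted p = 0.151) after rescaling, and the TPM call was lost without shNT replicate 2 or without shGLUD1 replicate 2. IRF3 overlaps BCL2L12, and IRF1 overlaps C5orf56, on the opposite strand. Whether the counting used strand is not given in the sources used here, so reads of these pairs may be mixed.

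The ISG15 system held the gene that rose most and the gene with the highest level. ISG15 encodes a ubiquitin-like protein that is joined to newly made proteins during the interferon response and is also released from cells. The gene spans chr1:1001138-1014540 on the plus strand. It was at 3154 and 3272 TPM with shNT, against 2536 and 2170 TPM with shGLUD1, both below the shNT libraries. ISG15 fell by 0.45 on the log2 scale (SE 0.10, limma adjusted p = 0.00185) and by 1.23 after rescaling. This gene alone made up 66.6% and 68.8% of the summed TPM of the 46 genes in shNT and 59.6% and 53.8% in shGLUD1. The summed level of the set was 4739 and 4759 TPM with shNT, against 4257 and 4037 TPM with shGLUD1. Leaving out ISG15 turned that order around on TPM, with 1585 and 1486 TPM with shNT, against 1721 and 1867 TPM with shGLUD1. Rescaling divides the shNT libraries by 0.766 and 0.777 and the shGLUD1 libraries by 1.227 and 1.425. After that the sum without ISG15 is lower with shGLUD1 too, so the turn holds on TPM only.

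HERC5 is the ligase that attaches ISG15 to its targets in human cells. It lies at chr4:88457117-88506163 on the plus strand. HERC5 was at 3.39 and 4.16 TPM with shNT, against 28.7 and 37.5 TPM with shGLUD1. No other member rose as much: the log2 fold change was 2.83 (SE 0.20, with an adjusted p of 3.2e-06 from limma) on TPM, 2.14 after rescaling and 1.92 with length and GC trends removed. HERC6, its neighbour and paralog, was at 2.2 and 2.25 TPM with shNT, against 4.91 and 7.54 TPM with shGLUD1. HERC6 rose by 1.14 (SE 0.25, limma adjusted p = 0.00258) on TPM and by 0.53 (adjusted p = 0.049) after rescaling, and was not called with length and GC trends removed (0.12, adjusted p = 0.547). USP18, the protease that removes ISG15 and restrains the interferon receptor, was at 5.59 and 4.97 TPM with shNT, against 8.23 and 10.1 TPM with shGLUD1. Its difference of 0.69 (SE 0.21, limma adjusted p = 0.0139) was 0.01 after rescaling, and the TPM call was lost without either shNT library or without shGLUD1 replicate 2.

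A pair of TRIM ubiquitin ligases was measured. TRIM21, a cytosolic antibody receptor and ubiquitin ligase, was at 17.2 and 15.4 TPM with shNT, against 25.1 and 25.5 TPM with shGLUD1. It differed by 0.61 (SE 0.15, limma adjusted p = 0.00472) on TPM and by -0.13 (adjusted p = 0.443) after rescaling, and lost the TPM call without shNT replicate 2. TRIM25, the ligase that ubiquitinates RIG-I, was at 9.01 and 7.48 TPM with shNT, against 6.29 and 7.62 TPM with shGLUD1. The groups overlapped on TPM (-0.22, limma adjusted p = 0.377), and after rescaling TRIM25 was lower (-0.90, adjusted p = 0.00238), as it was with length and GC trends removed (-1.17, adjusted p = 0.00182). TRIM25 overlaps C17orf67 on the same strand, so reads may be shared.

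IFIT1 binds viral RNA that lacks the methyl marks of host mRNA. The 4 IFIT genes of the set lie side by side at chr10:89283694-89421001. All 4 were called higher on TPM (against 56.7% of all genes), but only IFIT2 and IFIT3 after rescaling (against 22.7%). With length and GC trends removed IFIT1 changed sign, to -0.12. IFIT3 was at 24.2 and 30.4 TPM with shNT, against 81.3 and 109 TPM with shGLUD1. It rose by 1.76 (SE 0.16, limma adjusted p = 1.6e-05) on TPM and by 1.00 after rescaling. IFIT2 was at 9.42 and 10.9 TPM with shNT, against 29.9 and 44.1 TPM with shGLUD1. It rose by 1.75 (SE 0.19, limma adjusted p = 4.1e-05) on TPM and by 1.01 after rescaling, nearly the same as IFIT3.

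IFIT1, the most abundant of the family, was at 66.4 and 60.9 TPM with shNT, against 104 and 123 TPM with shGLUD1. Its difference was 0.82 (SE 0.12, limma adjusted p = 0.0002) on TPM and 0.06 (adjusted p = 0.703) after rescaling. IFIT5 was at 1.47 and 2.03 TPM with shNT, against 3.93 and 5.57 TPM with shGLUD1, a difference of 1.06 (SE 0.26, limma adjusted p = 0.00433) on TPM and 0.48 (adjusted p = 0.0805) after rescaling. The IFIT5 call on TPM was lost without shNT replicate 1, and with length and GC trends removed the gene was not called (0.30, adjusted p = 0.184). The groups did not overlap for any of the 4 genes, as was the case for 83.4% of all genes tested. The family's transcripts are similar and may share reads, and LIPA overlaps IFIT1, IFIT2 and IFIT3 on the opposite strand. The differences between these neighbours were not tested.

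The oligoadenylate synthetases make the short adenylate chains that activate the nuclease RNase L. OAS1, OAS3 and OAS2 lie in that order at chr12:112906777-113011723. OAS2 was at 2.37 and 2.61 TPM with shNT, against 6.39 and 9.56 TPM with shGLUD1. It rose by 1.34 (SE 0.25, limma adjusted p = 0.00084) on TPM and by 0.71 (adjusted p = 0.0133) after rescaling, and was not called with length and GC trends removed (0.35, adjusted p = 0.107). OAS3 was at 5.74 and 4.26 TPM with shNT, against 9.29 and 12.0 TPM with shGLUD1, higher in both. Its difference was 0.96 (SE 0.22, limma adjusted p = 0.00345) on TPM, a call lost without shNT replicate 2, and 0.28 (adjusted p = 0.235) after rescaling. With length and GC trends removed it was 0.57 (adjusted p = 0.0341), a value that rests on a length of 1392 nt for OAS3. That length is the median of its annotated coding transcripts, and the transcript present in these cells may differ. OAS1 ranged from 7.73 to 15.7 TPM over the 4 libraries and was not called on TPM (0.50, limma adjusted p = 0.0798) or after rescaling (-0.22, adjusted p = 0.449).

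OASL, an enzymatically inactive relative that strengthens RIG-I signalling, was the second most abundant member. It was at 522 and 475 TPM with shNT, against 534 and 539 TPM with shGLUD1, so the libraries lay close together. The difference was 0.11 (limma adjusted p = 0.308) on TPM, -0.67 (adjusted p = 0.00426) after rescaling and -0.32 (adjusted p = 0.0139) with length and GC trends removed. ISG20, an RNA exonuclease, was at 113 and 101 TPM with shNT, against 84.0 and 84.0 TPM with shGLUD1. ISG20 fell by 0.34 (SE 0.11, limma adjusted p = 0.0174) on TPM and by 1.11 after rescaling, and the TPM call was lost without shNT replicate 1 or shGLUD1 replicate 2.

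None of the 5 tested genes for membrane and entry effectors was called higher under any of the 3 treatments. Over all genes the shares higher were 56.7% on TPM, 22.7% after rescaling and 22.9% with length and GC trends removed. Of the 5 genes 2 were lower on TPM (40.0%, against 7.77% of all genes) and 4 after rescaling (80.0%, against 28.4%). With length and GC trends removed 2 were lower (40.0%, against 22.1%). BST2 encodes tetherin, which holds budding virus particles at the cell surface, and lies at chr19:17402939-17405648 on the minus strand. It was at 22.9 and 17.7 TPM with shNT, against 8.31 and 9.27 TPM with shGLUD1. Both shGLUD1 libraries were far below the shNT libraries, and BST2 fell by 1.11 on the log2 scale (SE 0.18, limma adjusted p = 0.00045), by 1.83 after rescaling and by 1.30 with length and GC trends removed. RSAD2 encodes viperin, an enzyme that makes a chain-terminating nucleotide. It was at 52.2 and 49.7 TPM with shNT, against 34.8 and 44.7 TPM with shGLUD1. The fall of 0.36 on TPM (SE 0.14, limma adjusted p = 0.045) was lost without either shNT library or without shGLUD1 replicate 1, while after rescaling the gene was lower by 1.12 (adjusted p = 0.00022).

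The IFITM proteins stop viruses from fusing with the membranes of endosomes. IFITM3 was at 111 and 117 TPM with shNT, against 129 and 135 TPM with shGLUD1, a small step between groups that did not overlap. It was not called on TPM (0.21, limma adjusted p = 0.0928) and was lower after rescaling (-0.56, adjusted p = 0.00417). IFITM2 was at 21.2 and 24.9 TPM with shNT, against 26.6 and 26.6 TPM with shGLUD1. Its difference was 0.20 (limma adjusted p = 0.245) on TPM and -0.55 (adjusted p = 0.0114) after rescaling. With length and GC trends removed neither was called, at 0.19 for IFITM3 and 0.18 for IFITM2. IFITM1, at 0.61 to 0.95 TPM, was not tested. The transcripts of the IFITM genes are near-identical, and the IFITM1 gene lies within the span of IFITM2 on the same strand, so the split of reads among them is uncertain.

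The MX genes encode dynamin-like GTPases that trap viral nucleocapsids, and both were low. MX2 ranged from 0.68 to 1.68 TPM and was not called on TPM (0.48, limma adjusted p = 0.12) or after rescaling (0.10, adjusted p = 0.731). MX1 was at 0.41 and 0.65 TPM with shNT, against 1.49 and 1.42 TPM with shGLUD1, below the filter. In a fit with no filter it was not called (0.69, limma adjusted p = 0.0601).

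Of the 8 other interferon-stimulated genes tested, 4 were higher and 2 lower on TPM (50% higher, against 56.7% of all genes), and rescaling left 2 higher and 3 lower (25% higher, against 22.7%). IFI6 encodes a small membrane protein that protects cells from apoptosis. It was at 223 and 195 TPM with shNT, against 136 and 176 TPM with shGLUD1. IFI6 fell by 0.43 (SE 0.13, limma adjusted p = 0.0139) on TPM, a call lost without replicate 1 of either group, and by 1.20 after rescaling. IFI27, a related small protein, was at 14.8 and 19.9 TPM with shNT, against 10.3 and 6.31 TPM with shGLUD1. The groups were apart, and IFI27 fell by 1.00 (SE 0.23, limma adjusted p = 0.00352) on TPM and by 1.71 after rescaling. IFI35 was at 44.0 and 43.4 TPM with shNT, against 38.8 and 38.0 TPM with shGLUD1, not called on TPM (-0.18, limma adjusted p = 0.211) lower after rescaling (-0.94, adjusted p = 0.0006) and lower with length and GC trends removed (-0.39, adjusted p = 0.00979).

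PARP9 and PARP14 encode a pair of ADP-ribosyltransferase family members encoded near each other on chromosome 3. PARP9 was at 0.48 and 0.77 TPM with shNT, against 2.6 and 4.53 TPM with shGLUD1, and rose by 1.46 (SE 0.28, limma adjusted p = 0.0011) on TPM and by 1.00 after rescaling. PARP14 was at 0.59 and 0.89 TPM with shNT, against 2.17 and 2.67 TPM with shGLUD1. Its difference was 0.98 (SE 0.25, limma adjusted p = 0.00608) on TPM, lost without shNT replicate 1, and 0.53 (adjusted p = 0.07) after rescaling. Neither was called with length and GC trends removed, at 0.48 for PARP9 and -0.03 for PARP14. PARP9 overlaps DTX3L on the opposite strand.

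IFI44L was at 0.6 and 0.91 TPM with shNT, against 2.7 and 3.45 TPM with shGLUD1. It rose by 1.22 (SE 0.25, limma adjusted p = 0.00183) on TPM and by 0.75 after rescaling, and was not called with length and GC trends removed (0.43, adjusted p = 0.0927). Its neighbour IFI44, at 24.6 to 46.4 TPM, overlapped between the groups and was not called on TPM (0.44, limma adjusted p = 0.0623) or after rescaling (-0.32, adjusted p = 0.157). SAMD9, a restriction factor of poxviruses, was at 1.23 and 0.87 TPM with shNT, against 2.59 and 3.11 TPM with shGLUD1. The difference of 0.91 (SE 0.25, limma adjusted p = 0.00832) was lost without shNT replicate 2 and was 0.42 (adjusted p = 0.129) after rescaling and 0.22 (adjusted p = 0.369) with length and GC trends removed. Its paralog SAMD9L was at 0.18 and 0.22 TPM with shNT, against 1.78 and 1.37 TPM with shGLUD1, below the filter by its mean. In the fit with no filter SAMD9L was higher, by 1.10 (limma adjusted p = 0.0201).

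**Figure D3:**
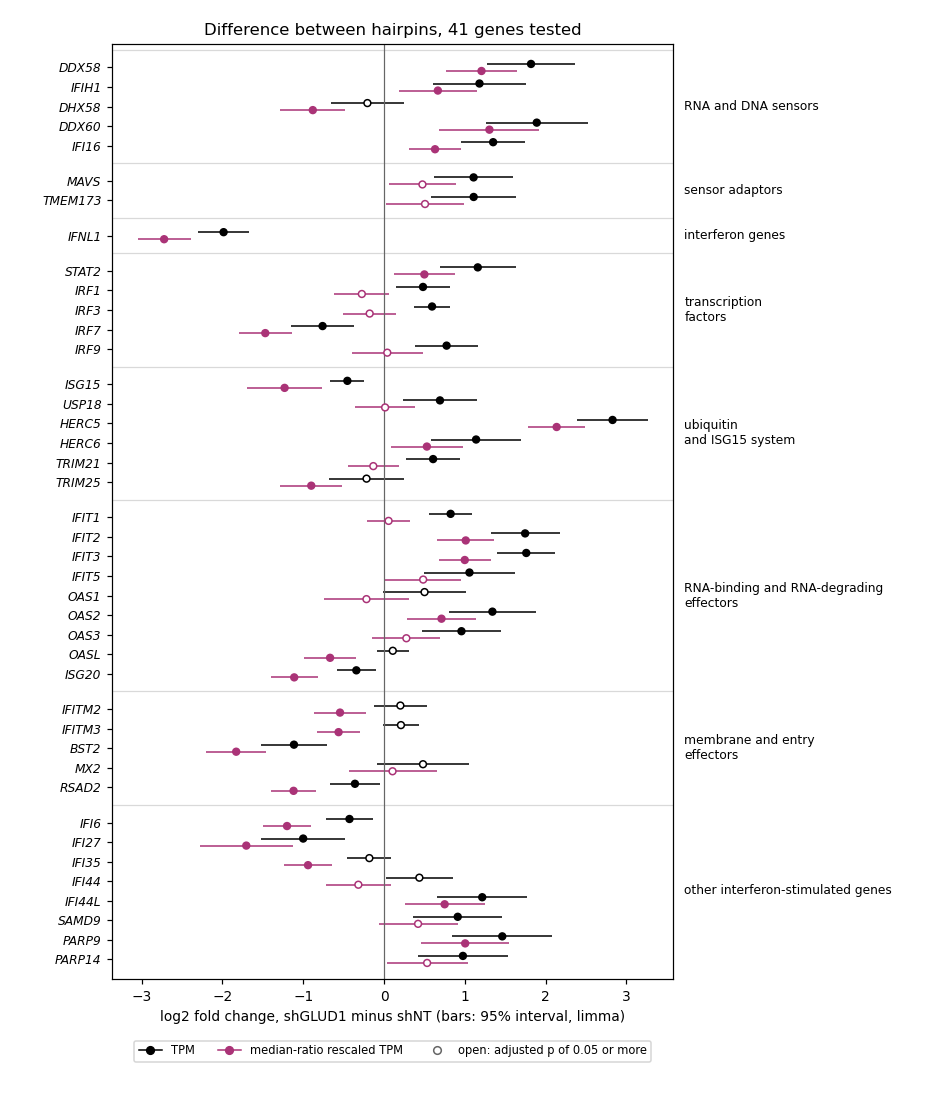
Log2 fold change (shGLUD1 minus shNT) of the 41 genes tested, on TPM (black) and after median-ratio rescaling (purple), with 95% limma intervals; open points have an adjusted p of 0.05 or more. HERC5 lies furthest right and IFNL1 furthest left on both scales.

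The direction of a member went with its length, taken as the median over its annotated coding transcripts. Spearman's rho between length and the difference on TPM was 0.62 over the 41 genes and 0.41 over 12258 genes, given as a description because genes of a library share its normalization. Among the 21 genes with transcripts of 632 to 2476 nt, 8 were higher and 7 lower on TPM, and 1 was higher and 11 lower after rescaling. Among the 20 longer genes, of 2617 to 11655 nt, 16 were higher and 1 lower on TPM, and 11 higher and 3 lower after rescaling. Over all genes of any length 56.7% were higher and 7.77% lower on TPM, and 22.7% and 28.4% after rescaling. The shares over all genes of like length were not computed. Over all genes the median difference went from -0.004 in the shortest of 10 bins of length to 0.99 in the longest. With length and GC trends removed rho was 0.34 over the 41 genes and 0.015 over all genes. The shorter genes of the set were then higher in 4 cases and lower in 9, and the longer ones higher in 5 and lower in 3. Over all genes 22.9% were then higher and 22.1% lower. Length and level went together in the set, since the shorter genes had a median level of 32.5 TPM and the longer ones 5.13 TPM. RSAD2, DHX58 and TRIM25 were long genes that did not follow the trend, with differences on TPM of -0.36, -0.21 and -0.22. They were chosen after their values were seen.

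**Figure D4:**
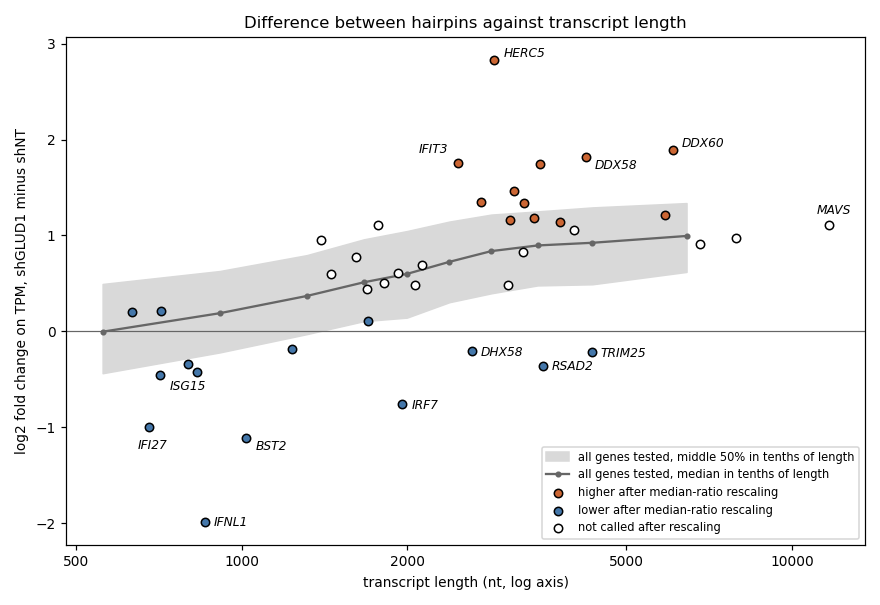
Log2 fold change on TPM against transcript length (log axis) for the 41 genes, with the median and middle 50% of all genes in 10 bins of length (grey line and band); orange and blue points were higher and lower after rescaling and white points were not called. HERC5 and IFNL1 lie furthest from the grey band.

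Outside the set, a list of interferon receptors, kinases and STATs also held 4 inhibitors of the pathway (SOCS1, SOCS3, PTPN2 and PIAS1). Of its 13 tested genes 11 were higher on TPM (84.6%, against 56.7% of all genes) and 8 after rescaling (61.5%, against 22.7%), and none was lower. The 9 tested genes other than the inhibitors held 8 of the higher ones on TPM and 7 after rescaling, and of the inhibitors 3 were higher on TPM and 1, PIAS1, after rescaling. IFNAR1, a chain of the type I interferon receptor, was at 2.04 and 1.37 TPM with shNT, against 8.35 and 12.2 TPM with shGLUD1. It rose by 2.05 (SE 0.26, limma adjusted p = 8e-05) on TPM and by 1.44 after rescaling. JAK1, the kinase shared by all interferon receptors, was at 2.95 and 3.68 TPM with shNT, against 13.6 and 15.1 TPM with shGLUD1. Its differences were 1.84 (SE 0.21, limma adjusted p = 4.4e-05) and 1.17. Both stayed called with length and GC trends removed, at 1.08 and 0.82. IFNLR1, the chain specific to interferon lambda and named after its values were seen, was at 0.46 TPM or less in every library.

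Of 23 tested genes that signal below the sensors 15 were higher and none lower on TPM (65.2% higher, against 56.7% of all genes). Rescaling left 4 higher and 3 lower (17.4% and 13.0%, against 22.7% and 28.4%). IRF2, a factor that competes with IRF1, was at 1.51 and 2.37 TPM with shNT, against 5.18 and 7.66 TPM with shGLUD1, with a log2 fold change of 1.33 (SE 0.27, with an adjusted p of 0.00141 from limma). TBKBP1, a scaffold of the kinase TBK1, was at 5.46 and 5.28 TPM with shNT, against 14.5 and 14.4 TPM with shGLUD1, with 1.28 (SE 0.19, limma adjusted p = 0.00021). TOMM70A, an import receptor of the outer mitochondrial membrane that binds MAVS, was at 5.25 and 6.13 TPM with shNT, against 14.3 and 15.5 TPM with shGLUD1, with 1.25 (SE 0.19, limma adjusted p = 0.00026). In each the shGLUD1 libraries were both higher, and after rescaling the differences were 0.73, 0.58 and 0.55. With length and GC trends removed only TBKBP1 of these was called (0.70, adjusted p = 0.00533).

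Of 33 further interferon-stimulated genes that were tested 23 were higher and 2 lower on TPM (69.7% and 6.06%, against 56.7% and 7.77% of all genes), while rescaling left 12 higher and 8 lower (36.4% and 24.2%, against 22.7% and 28.4%). ADAR, which edits adenosines in double-stranded RNA and keeps MDA5 from sensing it, was at 3.5 and 3.44 TPM with shNT, against 14.3 and 15.9 TPM with shGLUD1. It rose by 1.84 (SE 0.20, limma adjusted p = 3.4e-05) on TPM and by 1.17 after rescaling. APOBEC3B, a cytidine deaminase of single-stranded DNA, was at 13.3 and 11.2 TPM with shNT, against 38.7 and 49.9 TPM with shGLUD1. It rose by 1.77 (SE 0.17, limma adjusted p = 1.8e-05) on TPM and by 1.03 after rescaling. SAMHD1, which breaks down the building blocks of DNA, was at 1.25 and 1.33 TPM with shNT, against 5.77 and 7.49 TPM with shGLUD1, and rose by 1.73 (SE 0.24, limma adjusted p = 0.00016) on TPM and by 1.16 after rescaling. All 3 were also called higher with length and GC trends removed. The 2 genes that fell on TPM encode chemokines. CCL5 was at 249 and 220 TPM with shNT, against 135 and 136 TPM with shGLUD1, and fell by 0.79 on TPM (limma adjusted p = 0.0001) and by 1.56 after rescaling. CXCL11 was at 9.31 and 10.0 TPM with shNT, against 4.59 and 5.08 TPM with shGLUD1, and fell by 0.87 on TPM (limma adjusted p = 0.00339), a call lost without shNT replicate 2, and by 1.54 after rescaling.

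In the ISG15 pathway, the activating enzyme UBA7 and the conjugating enzyme UBE2L6 (both named after their values were seen) stand between ISG15 and HERC5. UBE2L6 was at 75.4 and 78.7 TPM with shNT, against 136 and 160 TPM with shGLUD1, and rose by 0.93 (SE 0.11, limma adjusted p = 7e-05) on TPM, with 0.16 (adjusted p = 0.244) after rescaling. UBA7 was at 9.7 and 10.3 TPM with shNT, against 13.8 and 14.2 TPM with shGLUD1. Its difference of 0.45 (limma adjusted p = 0.0408) was lost without any 1 of the libraries and was -0.27 (adjusted p = 0.149) after rescaling. Within this chain ISG15 was thus lower and its ligase HERC5 higher under all 3 treatments, while the enzymes between them were not called after rescaling and UBE2L6 was higher (0.60, adjusted p = 0.00379) with length and GC trends removed.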

How the data were processed

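Per the labels' protocols, the TruSeq V2 kit was used on 1 µg of RNA for each bulk library. The authors deposited 1 table of TPM per gene, and per the submitters' processing notes the tool was Bowtie 0.12.2 and the listed builds were hg38 and mm8, in roles not stated there. For the counting tool, strand setting and read totals, the sources used here are silent. TPM values share 1000000 among all genes, so a large class that shrinks raises the rest.

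Genes were tested with limma 3.58.1 in R 4.3.3 (lmFit, eBayes with a variance trend, two-sided, Benjamini-Hochberg) on log2(TPM + 1), over genes whose mean reached 1 TPM. Fits were tested on simulated data with independent errors and no shift over all genes, so that check does not bear on the scaling. Median-ratio rescaling used genes above 0 in all 4 libraries. Length and GC (GENCODE 29, 52337 of 57820 identifiers matched, 97.9% of genes tested with a length) were removed with loess curves (span 0.5). Both were medians over the annotated coding transcripts of a gene, or over its other transcripts where none was coding. Promoters came from RefSeq (GRCh38.p14). Tables and plots used Python 3.11.15, pandas 2.3.3, scipy 1.17.1 and matplotlib 3.10.9.

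All 46 genes were named by role, with up to 3 called genes of largest difference from each pathway list, of which 1 is not reported here. The members and lists were chosen with earlier results of these data known. No set test was run. An exact permutation test of 2 against 2 libraries cannot go below p = 0.333. Alternatives tried were the pseudocount, the filter, the scaling, the variance trend, the replicate block, each library left out, ribosomal protein genes left out, and removal of length and GC trends. Rescaling with each library left out was added after seeing the data.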

Additional observations from a re-analysis of the deposited data

How the results depend on the processing

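Scaling decided most of the counts. All genes called higher on TPM numbered 7105 of 12524 (56.7%), and 4676 of 7833 (59.7%) with a mean of at least 5 TPM, 2846 after median-ratio rescaling, 2938 after quantile normalization and 2811 once length and GC trends were removed; lower calls went from 973 to 3557, 2764 and 2711 under the last 3. Among the members 24 higher became 12, 10 and 9, and 8 lower became 14 after rescaling, 4 with no filter and 5 with no variance trend. Leaving out 1 library gave 20 to 24 members higher and 4 to 7 lower on TPM, and 6 to 9 higher and 13 to 15 lower after rescaling. In the pathway lists 49 higher became 24, 26 and 20, and 2 lower became 11, 10 and 10 under the 3 scalings, 4 without ribosomal protein genes, and 1 to 2 with 1 library left out. Signs turned after rescaling for IRF1 (-0.28), IRF3 (-0.18), TRIM21 (-0.13), OAS1 (-0.22), OASL (-0.67), IFITM2 (-0.55), IFITM3 (-0.56) and IFI44 (-0.32). After quantile normalization they turned for IRF1 (-0.042), USP18 (-0.086), TRIM21 (-0.005), OAS1 (-0.20), IFITM2 (-0.38), IFITM3 (-0.055), MX2 (-0.066) and IFI44 (-0.086). With length and GC trends removed they turned for IRF1 (-0.063), USP18 (-0.005), TRIM21 (-0.066), IFIT1 (-0.12), OAS1 (-0.16), OASL (-0.32), MX2 (-0.45), IFI44 (-0.16) and PARP14 (-0.032), and without ribosomal protein genes for OASL (-0.081). GLUD1 ranged from -0.37 to 0.15 with 1 library left out. The cause was not tested. A pseudocount of 0.1 TPM altered no member's call. Same-numbered libraries deviated together with a correlation of 0.039 over only 2 pairs, so they share a number and no known pairing; the replicate block gave 26 members higher and 8 lower, with 7395 and 1061 over all genes. A left-out library leaves 1 in its group, assumed to vary like the other group. Over all genes too, fewer were called lower on TPM, and fewer higher after rescaling, with any 1 library left out. Depth is unknown and sets no limit that can be computed from TPM.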

Other observations

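Of further genes chosen after their values were seen, TREX1, PML and ZC3HAV1 were higher under all 3 treatments of the data, and CXCL10 and EIF2AK2 were not. TREX1, the exonuclease that clears cytosolic DNA, was at 22.6 and 22.8 TPM with shNT, against 62.2 and 55.4 TPM with shGLUD1 (1.34, limma adjusted p = 2.1e-05, with 0.58 after rescaling). PML, the organiser of nuclear bodies, was at 12.2 and 13.3 TPM with shNT, against 38.7 and 41.3 TPM with shGLUD1 (1.58, limma adjusted p = 1.6e-05, with 0.84 after rescaling). ZC3HAV1, which binds CpG-rich viral RNA, was at 13.2 and 11.8 TPM with shNT, against 33.9 and 42.1 TPM with shGLUD1 (1.52, limma adjusted p = 3.2e-05, with 0.78 after rescaling). CXCL10, a chemokine of the interferon response, was at 15.2 and 15.5 TPM with shNT, against 11.9 and 13.9 TPM with shGLUD1, not called on TPM (-0.23, limma adjusted p = 0.245) and lower after rescaling (-0.96, adjusted p = 0.00067). EIF2AK2, which encodes the RNA-activated kinase PKR, was at 0.79 and 1.41 TPM with shNT, against 2.6 and 2.48 TPM with shGLUD1. Its call on TPM (0.77, limma adjusted p = 0.0223) was lost without shNT replicate 1 or either shGLUD1 library, and it was not called after rescaling (0.29, adjusted p = 0.327).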
